A study of Mus musculus with 13 samples.

Results

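A set of 7 mRNAs was plentiful in the total RNA of wild-type mouse embryonic fibroblasts and nearly missing from RNA pulled down with antibodies from mouse embryonic fibroblasts whose genotype the labels do not name. They are Loxl2, Cthrc1, C1qtnf3, Gpx3, Adm, Aplp1 and Creb3l1. The members were chosen by measured levels. Each had at least 100 CPM (a gene's counts as a share of its library's gene counts, scaled to a common total) in both wild-type total RNA libraries. Each was below 2 CPM in all 9 immunoprecipitation (IP) libraries, and genes placed in another family were left aside. They are 7 of 43629 genes measured, and 7 of the 22 genes that met both thresholds. CPM is not divided by transcript length, so levels are compared between libraries and not between genes.

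The libraries came from E12.5 fibroblasts kept in DMEM with 10% serum, and the study looked for the RNA clients of IMP1 and IMP2. These proteins, made from Igf2bp1 and Igf2bp2, bind mRNAs in the cytoplasm. The IP groups were IMP1 IP, IMP2 IP and, as the control for background, IgG IP, with 3 libraries each. The labels do not say that replicates were separate cultures, so p-values measure the spread between these libraries, which may be technical. For total RNA there was a single library per genotype, from IMP1 KO, IMP2 KO, IMP1 WT and IMP2 WT cells. The labels do not describe the deleted alleles, nor the number of embryos or lines behind a genotype.

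Fibroblasts build and remodel the matrix around them, and most of what they export is made on ribosomes at the endoplasmic reticulum. Loxl2, Cthrc1, C1qtnf3, Gpx3 and Adm encode secreted proteins of that route. Aplp1 encodes a membrane protein at the cell surface, and Creb3l1 a transcription factor held in the endoplasmic reticulum membrane until proteases release it.

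Gene counts ran between 11430002 and 21756430 per library, and a member had 0 to 24 reads in an IP library. Where no read was counted, up to 3 counts are allowed, which is a floor of 0.138 to 0.263 CPM in these libraries. Igf2bp1 had 3.32 CPM in IMP1 KO against 32.3 CPM in IMP1 WT total RNA, and Igf2bp2 had 27.8 CPM in IMP2 KO against 146 CPM in IMP2 WT. The 15 fibroblast markers together had a sum of 22172 to 33657 CPM in the IP libraries and 38208 to 62333 CPM in total RNA. Of the 15, 12 were lower in all IP libraries than in both WT libraries, and Fn1 overlapped with WT. The share of all genes lower in all IP libraries is not given here. The median IP level of genes at 100 CPM or more in both WT libraries was 61.8% of WT. Lum, a proteoglycan, stayed at 0 to 0.0919 CPM in the IP libraries against 42.4 CPM in IMP1 WT and 79.6 CPM in IMP2 WT. Fap, a surface protease, stayed at 0 to 0.127 CPM against 6.17 CPM in IMP1 WT and 6.5 CPM in IMP2 WT. Pdgfra and Pdgfrb, receptors for platelet-derived growth factor, were higher in all IP libraries than in both WT libraries. The WT total RNA stood apart in transcripts of the Y chromosome. Ddx3y, Uty, Kdm5d and Eif2s3y summed to 0 to 0.144 CPM in the 9 IP libraries, to 0 in IMP1 KO and 0.302 CPM in IMP2 KO, against 93.2 CPM in IMP1 WT and 200 CPM in IMP2 WT. Xist was at 48.7 to 752 CPM in the IP libraries and at most 10.2 CPM in total RNA. Whether IP and WT cells came from the same embryos is not stated, and the part of such a difference in the values below was not tested.

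The RefSeq promoter table of build GRCm38.p6 held 4 of the 7 members, and the 120 bases before the start given there are shown to let the members be compared in sequence, which the thresholds did not use. For C1qtnf3 that start lies 213 bases inside the gene's RefSeq span, so its stretch is within the annotated gene. Loxl2, Cthrc1 and Creb3l1 were not in that table. Capitals mark a TATAAA match in C1qtnf3 and, in Gpx3, a CCAAT match read on the opposite strand (ATTGG). Aplp1 is at chr7:30445583-30445702 (minus strand), Adm at chr7:110627537-110627656, Gpx3 at chr11:54902734-54902853 and C1qtnf3 at chr15:10952212-10952331 (plus strand).
Gpx3: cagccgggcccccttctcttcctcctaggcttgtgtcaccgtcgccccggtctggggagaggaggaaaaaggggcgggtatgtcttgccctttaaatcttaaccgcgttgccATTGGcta
C1qtnf3: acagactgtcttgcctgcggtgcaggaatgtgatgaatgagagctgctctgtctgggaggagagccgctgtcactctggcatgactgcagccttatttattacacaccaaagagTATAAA
Adm: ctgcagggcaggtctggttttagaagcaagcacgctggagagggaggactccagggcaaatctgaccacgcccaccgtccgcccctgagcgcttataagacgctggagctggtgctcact
Aplp1: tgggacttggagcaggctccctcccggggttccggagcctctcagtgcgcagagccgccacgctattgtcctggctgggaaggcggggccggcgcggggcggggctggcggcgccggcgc

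Searched on both strands from 250 bases before to 50 after the start, TATAAA was in 1 of the 4 promoters and in 13.6% of the 32851 promoters of the table. CCAAT was in 1 of the 4 and in 37.4% of all. The AP-1 motif TGANTCA was in 0 of the 4 and in 7.81% of all. The core of the hypoxia response element, ACGTG, was in 0 of the 4 and in 19.6% of all. The letters TGACG, a core of the cAMP response element that can overlap the preceding motif, were in 0 of the 4 and in 20.8% of all. These matches only describe the windows. Base composition was unlike between the 4 printed stretches. G and C made up 76.7% of the bases in Aplp1, 60.8% in Adm, 59.2% in Gpx3 and 49.2% in C1qtnf3, beside a median of 54.2% over all promoters. No motif searched was in more than 1 of the 4 promoters.

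Loxl2 (ENSMUSG00000034205, chr14:69608692-69695834) had the most WT reads of the 7 and encodes a copper amine oxidase that crosslinks collagen and elastin. It had 0.317, 0.282 and 0.111 CPM in IMP1 IP, 0.191, 0.198 and 0.0919 CPM in IMP2 IP, and 0.647, 0.169 and 0.619 CPM in IgG IP, against 686 CPM in IMP1 WT and 669 CPM in IMP2 WT total RNA. All 9 IP libraries were low and the ranges of the 3 IP groups overlapped. The 9 IP libraries together held 42 reads of Loxl2, which was 2460.5-fold lower in CPM than the 21652 reads of the WT libraries (95% counting interval 1819.7 to 3415). Reads without molecular identifiers are not independent molecules, so intervals and floors cover counting error only. This contrast chose the members and was not tested.

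Cthrc1 (ENSMUSG00000054196, chr15:39076932-39087121) encodes a secreted protein with a collagen-like repeat that promotes planar cell polarity signalling by Wnt ligands. It had 0 CPM in all 3 IMP1 IP libraries, 0, 0 and 0.046 CPM in IMP2 IP and 0 CPM in all 3 IgG IP libraries, against 113 CPM in IMP1 WT and 159 CPM in IMP2 WT total RNA. A single read was counted in the 9 IP libraries. With a floor of 3 counts over the group, Cthrc1 was at least 2508-fold lower in IMP1 IP and at least 1848-fold lower in IgG IP than in WT total RNA. In IMP2 IP its 1 read gave a ratio of 7929-fold lower, with an interval of 1422 to 313247.

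C1qtnf3 (ENSMUSG00000058914, chr15:10952119-10980162), a secreted relative of adiponectin with a collagen stalk, kept more reads. It had 0.528, 0.791 and 0.498 CPM in IMP1 IP, 0.891, 1.19 and 0.919 CPM in IMP2 IP, and 0.719, 0.507 and 0.687 CPM in IgG IP, against 199.6 CPM in IMP1 WT and 109.7 CPM in IMP2 WT. In CPM of total gene counts, the 3 IMP2 IP values stood above those of both other IP groups, which overlapped. With TMM scaling, IMP2 IP did not pass against IgG IP (edgeR adjusted p = 0.192) or IMP1 IP (edgeR adjusted p = 0.228). The share of all genes with IP groups apart is not given here. Over all IP libraries it was 197-fold lower than in WT total RNA (interval 164 to 239).

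Gpx3 (ENSMUSG00000018339, chr11:54902854-54910387) encodes the selenium-dependent glutathione peroxidase found in plasma and extracellular fluid. Its levels were 0.211, 0.226 and 0.443 CPM in IMP1 IP, 0.318, 0.0992 and 0.322 CPM in IMP2 IP, and 0.503, 0.253 and 0.344 CPM in IgG IP, against 106 CPM in IMP1 WT and 124 CPM in IMP2 WT. The IP groups overlapped, and the IP libraries were 393-fold below WT total RNA (interval 293 to 539.5). Adm (ENSMUSG00000030790, chr7:110627657-110629820) encodes the vasodilator peptide adrenomedullin. It had 0.211, 0.452 and 0.554 CPM in IMP1 IP, 0.763, 1.04 and 0.965 CPM in IMP2 IP, and 1.08, 0.76 and 0.687 CPM in IgG IP, against 130.2 CPM in IMP1 WT and 114 CPM in IMP2 WT. Adm was lower in all 3 IMP1 IP libraries than in any IMP2 IP or IgG IP library, and IMP2 IP and IgG IP overlapped. Over all IP libraries it was 168-fold lower than in WT total RNA (interval 139 to 205), the smallest of the 7 ratios.

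Among the membrane proteins, Aplp1 (ENSMUSG00000006651, chr7:30434980-30445582) belongs to the family of the amyloid precursor protein. It had 0.106, 0.113 and 0.111 CPM in IMP1 IP, 0.127, 0.149 and 0.368 CPM in IMP2 IP, and 0.0719, 0.169 and 0.0687 CPM in IgG IP, against 123 CPM in IMP1 WT and 185 CPM in IMP2 WT. The IP groups rested on 6 reads in IMP1 IP, 13 in IMP2 IP and 4 in IgG IP, 23 in all, too few to order them. In a fit without a filter on low counts, IMP1 IP and IMP2 IP did not differ beyond the spread between libraries (edgeR adjusted p = 0.536). Aplp1 was 1039-fold lower in the IP libraries than in WT total RNA (interval 692 to 1641). Creb3l1 (ENSMUSG00000027230, chr2:91982328-92024170) drives genes of secretion and collagen synthesis once released. It had 0.158, 0.339 and 0.498 CPM in IMP1 IP, 1.46, 0.892 and 0.644 CPM in IMP2 IP, and 0.719, 0.676 and 0.412 CPM in IgG IP, against 149 CPM in IMP1 WT and 159.7 CPM in IMP2 WT. IMP1 IP was below IMP2 IP in every library, IgG IP overlapped both, and the ratio to WT total RNA was 244-fold lower (interval 199 to 301).

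**Figure D1:**
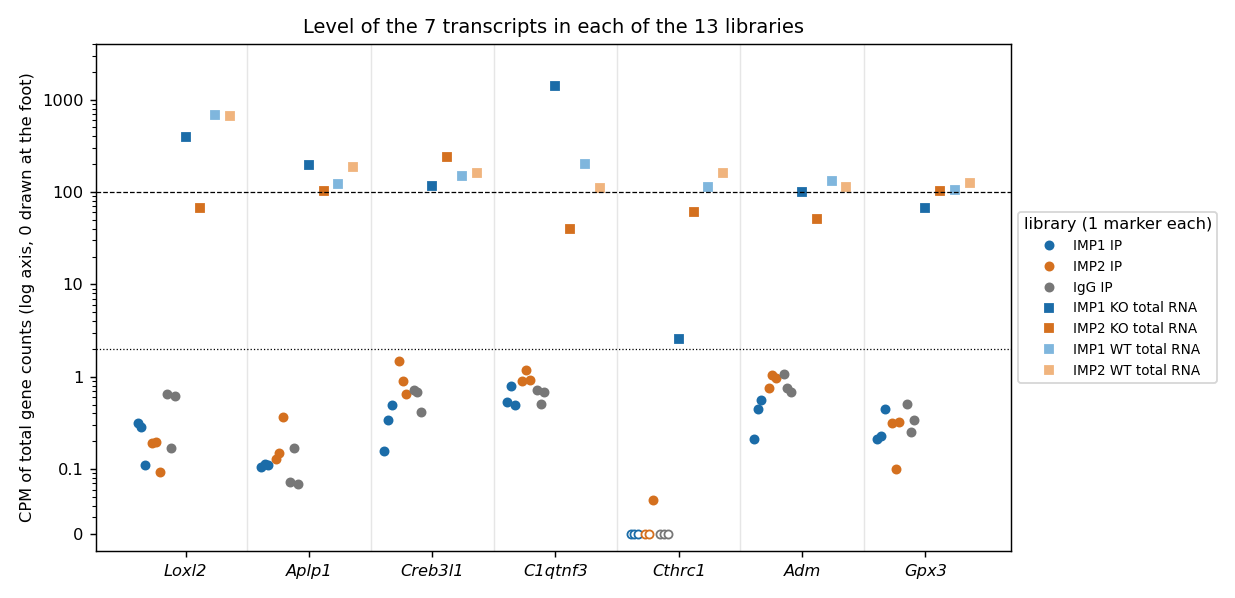
Level of the 7 transcripts in CPM of total gene counts (log axis, 0 drawn at the foot as open markers), 1 marker per library, for the IP groups (circles) and KO and WT total RNA (squares). The dashed line is at 100 CPM and the dotted line at 2 CPM; every IP circle lies below 2 CPM and every WT square above 100 CPM, as the choice of members requires, while the IMP1 KO square of Cthrc1 lies at 2.54 CPM.

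Set against other abundant transcripts, so low a pull-down level was rare. Of 1857 genes at 100 CPM or more in both WT libraries, 22 were below 2 CPM in all 9 IP libraries (1.18%), and the median of the highest IP level was 181 CPM. At 10 CPM or more in both WT libraries, 426 of 9050 genes were below 2 CPM in all IP libraries (4.71%). The 22 genes were the 7 members, 6 other named genes, among them the chemokine Cxcl14, the growth factor binding protein Igfbp2 and the actins Actg2 and Acta1, and 9 predicted genes or pseudogenes, among them Rpl10a-ps1 and Rpl3-ps1 of ribosomal protein genes. Reads that aligned to more than 1 place were 17.2% to 28.2% of the records in the IP libraries and 38.4% to 40.9% in total RNA, and their part in the pseudogene counts was not tested. Just inside the IP limit lay C1qtnf3, Creb3l1 and Ndn, whose highest IP levels were 1.19, 1.46 and 1.65 CPM, and just outside it Rpl37rt at 2.1 CPM. By the WT limit, Gpx3 and C1qtnf3 were just inside, at 106 and 109.7 CPM in their lower WT library, and Gria3 was just outside at 98.7 CPM. Scaled by TMM over all 13 libraries, Gpx3 no longer met the limit and the other members did.

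**Figure D2:**
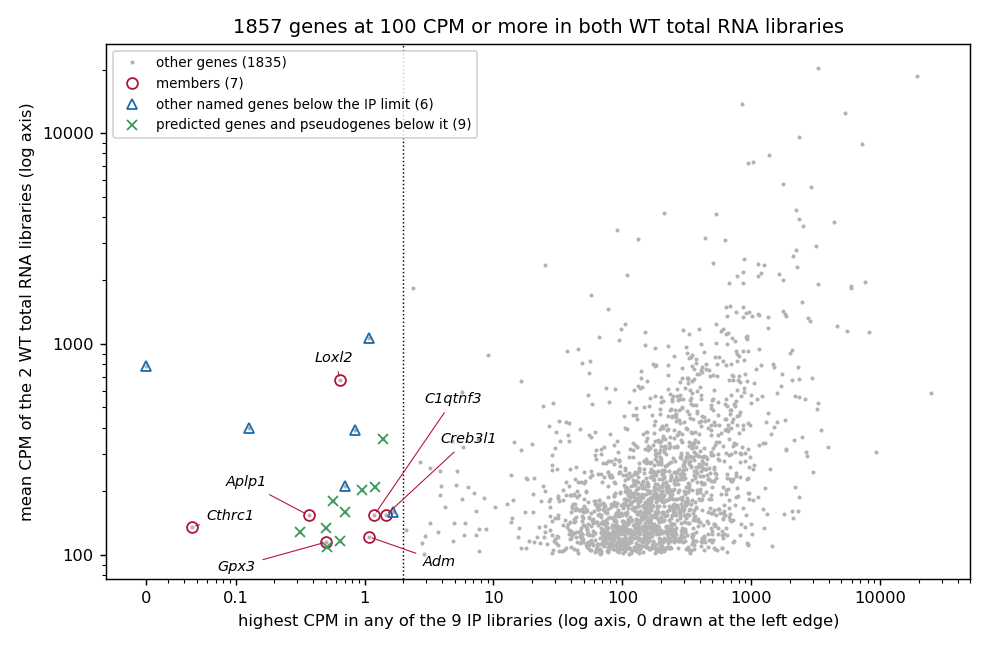
Each point is 1 of the 1857 genes at 100 CPM or more in both WT total RNA libraries, with its highest CPM in any IP library (log axis, 0 at the left edge) and its mean WT CPM (log axis). The 22 genes left of the dotted line at 2 CPM are the 7 members (circles), 6 other named genes (triangles) and 9 predicted genes or pseudogenes (crosses), apart from a cloud whose median is 181 CPM.

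The closest relatives of the members mostly had reads in the same IP libraries, as most genes did. Of 29 relatives in 6 gene families, 15 had at least 10 CPM in both WT libraries, and 1 of these 15 (6.67%) was below 2 CPM in all IP libraries, a share near the 4.71% of all genes at that WT level. The median IP level of the 15 was 33.6% of WT, beside 79.6% over the 9050 genes. The gene below 2 CPM was Gpx7, an endoplasmic reticulum peroxidase, at 0 to 0.0992 CPM in the IP libraries and 28 CPM on average in WT total RNA. Mean IP levels of the other lysyl oxidases, as a percentage of the mean WT level, were 10.4% for Lox, 40.4% for Loxl1, 8.27% for Loxl3 and 686% for Loxl4, beside 0.0431% for Loxl2. Loxl4 thus ran the other way, at 547 to 637 CPM in the IP libraries against 99.3 CPM in IMP1 WT and 73.8 CPM in IMP2 WT. In the amyloid precursor family the percentage was 33.6% for App and 105% for Aplp2, beside 0.0924% for Aplp1. In the CREB3 family it was 25.4% for Creb3 and 88.8% for Creb3l2, beside 0.418% for Creb3l1. The C1q/TNF relatives C1qtnf1, C1qtnf6 and C1qtnf12 stood at 17.2% to 45.4%, beside 0.484% for C1qtnf3. Gpx1, Gpx4 and Gpx8 stood at 17.9% to 68.2%, beside 0.263% for Gpx3. Adm had no relative at 10 CPM or more in both WT libraries. Below that level, 2 relatives had at least 2 CPM in both WT libraries, and both were below 2 CPM in all IP libraries. They were C1qtnf2, at 0 to 0.0687 CPM in the IP libraries against 3.59 CPM in IMP1 WT and 5.4 CPM in IMP2 WT, and Adm2, a peptide related to adrenomedullin, at 0.206 to 1.2 CPM against 6.1 CPM in IMP1 WT and 10.3 CPM in IMP2 WT.

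**Figure D3:**
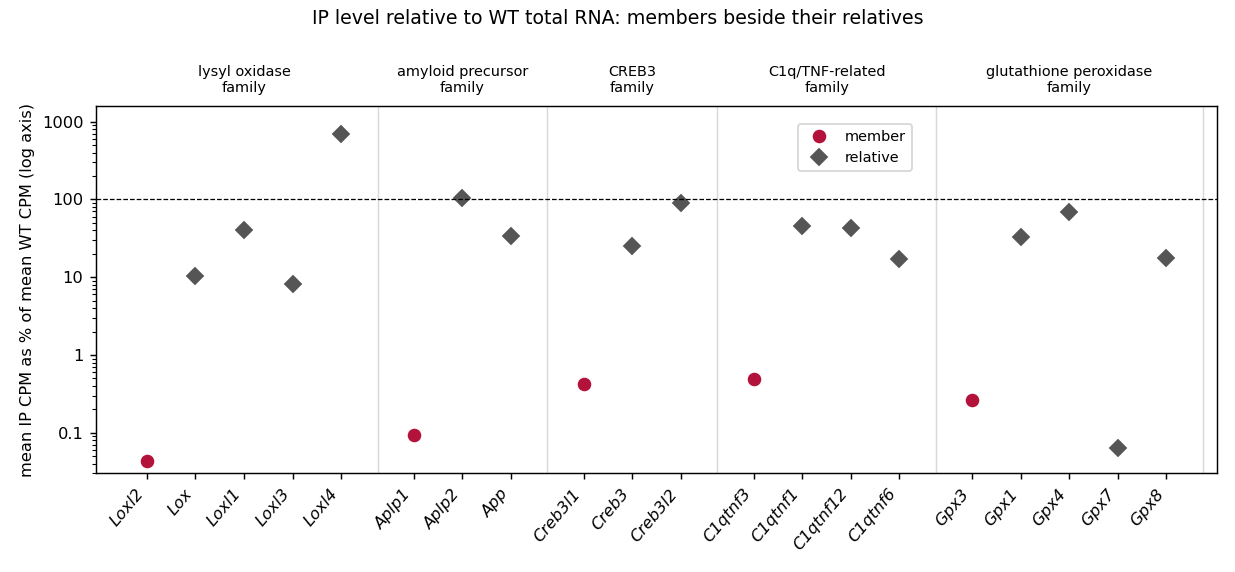
Mean IP level as a percentage of the mean WT total RNA level (log axis), by family. Circles are the members Loxl2, Aplp1, Creb3l1, C1qtnf3 and Gpx3, and diamonds their relatives at 10 CPM or more in both WT libraries. Adm and Cthrc1 are not drawn. Circles lie at 0.0431% to 0.484%, diamonds at 8.27% to 686% except Gpx7 at 0.0646%.

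Partners of the 7 proteins were below 2 CPM about as often as genes at large. In 6 lists of pathway genes, 47 of 54 genes had at least 10 CPM in both WT libraries, and 2 of the 47 (4.26%) were below 2 CPM in all IP libraries, beside 4.71% of all such genes. The median IP level of the 47 was 50.6% of WT. Both genes below 2 CPM are matrix genes of the list on collagen assembly, whose 22 genes had a median of 36.9% of WT. Eln, the elastin that Loxl2 can crosslink, had 0 counts in all IP libraries, against 137 CPM in IMP1 WT and 77.2 CPM in IMP2 WT, and Lum was the other. Over the list on collagen assembly the level ran from 0% for Eln to 97.6% for Plod1, with Col1a1, a fibrillar collagen, at 34.3%. Of other secreted matrix proteins, Fn1 (fibronectin) stood at 75.5% and Postn at 5.03%. Col3a1, another fibrillar collagen, was at 42.6 to 91.1 CPM in the IP libraries against 2550.2 CPM in IMP1 WT and 4408 CPM in IMP2 WT, or 1.83%. The proteases that release Creb3l1, Mbtps1 and Mbtps2, stood at 59.9% and 154%. Secretases, which cut Aplp1 and its relatives, stood at 16.6% to 194% over the 7 genes measured at 10 CPM. Of the genes that insert selenocysteine, as Gpx3 needs, 0 of 5 were below 2 CPM in all IP libraries, and they stood at 32.9% to 194%. Wnt5a, the ligand in whose signalling Cthrc1 takes part, was at 86.3%. Calcrl, the receptor subunit for adrenomedullin, was at 185%, and Ackr3, a scavenger receptor for it, at 2.29%. Ramp1, a partner of Calcrl, was at 0.166%, with 0 to 0.137 CPM in the IP libraries against 10.4 CPM in IMP1 WT and 7.95 CPM in IMP2 WT. Of 5 partner genes under 10 CPM but at 2 CPM or more in both WT libraries, 2, Ramp1 and the secretase subunit Psenen, were below 2 CPM in all IP libraries.

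Transcripts from the flanks of the members were mostly present in the IP libraries, as those of most genes were. Of all genes at 10 CPM or more in both WT libraries, 4.71% were below 2 CPM in all IP libraries. The share of all genes above 5 CPM in every IP library is not given here. Of 14 nearest protein-coding neighbours, 11 had at least 10 CPM on average in WT total RNA, and all 11 were above 5 CPM in every IP library, between 6.83 and 250.5 CPM. Tnip1, which starts 399 bases past Gpx3, was at 15.5 to 33 CPM, and R3hcc1, 1469 bases past Loxl2, at 7.03 to 18.1 CPM. The other 3 neighbours were below 1 CPM in WT total RNA as well. Across the 13 libraries each member had a Pearson r of 0.907 to 0.996 to the mean of the others on log2(CPM + 0.5). This describes mainly the split between 9 IP and 4 total RNA libraries, which all 13 points share. The thresholds that chose the members set most of that split, so the r is no support for members varying together. KO levels were not used by the thresholds, and there the members went different ways, as given below. The non-members closest to the members' mean were Stox2 (r = 0.999), Zfp105 (0.998) and Aldoart1, BC048507 and Tcfl5 (0.997 each). Stox2 was at 0 to 0.0719 CPM in the IP libraries and 20.7 to 38.8 CPM in total RNA.

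Markers of other cell types also differed between IP and WT libraries, in both directions. The share of all genes with IP and WT libraries apart is not given here, so the counts below only describe the lists. All 5 smooth muscle markers, genes that contractile fibroblasts also use, were lower, with a sum of 424 to 1169 CPM in the IP libraries against 14134 CPM in IMP1 WT and 10085 CPM in IMP2 WT, and Myh11 and Des were below 2 CPM in all IP libraries. Chondrocyte markers summed to 74.8 to 124 CPM in the IP libraries against 408 CPM in IMP1 WT and 245 CPM in IMP2 WT. Of the 6, Acan, Col2a1, Comp and Col9a1 were lower in all IP libraries, Col9a1 at 0. Sox9, a transcription factor of that list, made up most of the IP sum and was higher, at 70.2 to 121 CPM in the IP libraries against 21.8 CPM in IMP1 WT and 21.3 CPM in IMP2 WT. The 8 macrophage markers summed to 7.97 to 18.7 CPM in the IP libraries, with Adgre1, C1qa, C1qb and Tyrobp at 0, against 26.8 CPM in IMP1 WT and 36 CPM in IMP2 WT. Of the 8, 6 were lower in all IP libraries, while Csf1r and Cd68 overlapped with WT, Cd68 at 3.38 to 9.01 CPM in the IP libraries against 3.12 CPM in IMP1 WT and 3.72 CPM in IMP2 WT. Neural markers summed to 393.5 to 559.5 CPM in the IP libraries against 293 CPM in IMP1 WT and 211 CPM in IMP2 WT, with Nes and Map2 higher and Tubb3, Sox10 and Elavl4 lower in all IP libraries. Endothelial markers summed to 10.9 to 18.1 CPM in the IP libraries against 7.05 CPM in IMP1 WT and 3.42 CPM in IMP2 WT, with Kdr higher and Emcn lower in all IP libraries. Adipocyte markers summed to 12.8 to 23.6 CPM in the IP libraries against 27.5 CPM in IMP1 WT and 24.3 CPM in IMP2 WT, with Pparg higher and Fabp4 and Lpl lower in all IP libraries. Epithelial and skeletal muscle markers summed to at most 0.793 CPM in any IP library. The part of these markers in the result was not tested. In bulk libraries, fewer cells of a type and less RNA per cell cannot be told apart.

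Between the IP groups, the question was whether the traces of these mRNAs differ with the antibody. All 9 IP libraries entered 1 edgeR quasi-likelihood fit, adjusted by Benjamini-Hochberg over 14076 genes. Loxl2, Aplp1, Cthrc1 and Gpx3 did not pass its filter on low counts, so 3 of the 7 members were tested, and passing required a higher level in some libraries. For IMP1 against IgG, 1 of the 3 passed an adjusted p of 0.05, where 63.6% of all tested genes did. That gene, Adm, passed the count filter only through IMP2 IP and IgG IP libraries, where it is higher, so the call supports nothing. Adm averaged 0.406 ± 0.176 CPM in IMP1 IP and 0.842 ± 0.208 CPM in IgG IP (SD, n = 3 each), a log2 fold change of -0.91 (SE 0.378, edgeR adjusted p = 0.0415), lower in 3 of 3 libraries. Creb3l1 had a log2 fold change of -0.69 (SE 0.488, edgeR adjusted p = 0.223) and C1qtnf3 of 0.06 (SE 0.347, edgeR adjusted p = 0.909), within the spread between libraries. The Adm call ended without IMP1 IP replicate 1 (log2 -0.58), IMP1 IP replicate 2 (log2 -0.98), IgG IP replicate 1 (log2 -0.68) or IgG IP replicate 2 (log2 -0.96). It also ended with DESeq2 (log2 -0.92, adjusted p = 0.125), with no count filter (log2 -0.85, edgeR adjusted p = 0.0754) and with the replicate block (log2 -0.91, edgeR adjusted p = 0.0513). Over 14 alternatives its adjusted p was 0.0163 to 0.214.

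For IMP2 against IgG, 0 of the 3 tested members passed by edgeR, DESeq2 or limma voom, and 0 had an unadjusted edgeR p under 0.05, where 77.6% of all tested genes passed by edgeR. Adm averaged 0.923 ± 0.144 CPM in IMP2 IP and 0.842 ± 0.208 CPM in IgG IP (SD, n = 3 each), and its log2 fold change was -0.03 (SE 0.311, edgeR adjusted p = 0.947). C1qtnf3 averaged 1.00 ± 0.165 CPM in IMP2 IP and 0.638 ± 0.115 CPM in IgG IP, and its log2 fold change was 0.46 (SE 0.309, edgeR adjusted p = 0.192). That of Creb3l1 was 0.50 (SE 0.383, edgeR adjusted p = 0.235). With no count filter Loxl2 entered the fit and was lower in IMP2 IP, with log2 -1.70 (SE 0.579, edgeR adjusted p = 0.00782), on 9 reads in IMP2 IP and 20 in IgG IP. Loxl2 was the 1 member called among the 7 in that fit. Its level in IgG IP replicate 2, 0.169 CPM, lay within the IMP2 IP range.

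For IMP1 against IMP2, 2 of the 3 tested members passed, where 71.4% of all tested genes passed. These 2, Creb3l1 and Adm, passed the count filter only through IMP2 IP and IgG IP libraries, where their levels were higher. Their calls therefore support nothing. Creb3l1 averaged 0.332 ± 0.17 CPM in IMP1 IP and 1.00 ± 0.42 CPM in IMP2 IP (SD, n = 3 each), a log2 fold change of -1.20 (SE 0.406, edgeR adjusted p = 0.0119). Adm averaged 0.406 ± 0.176 CPM in IMP1 IP and 0.923 ± 0.144 CPM in IMP2 IP, a log2 fold change of -0.88 (SE 0.343, edgeR adjusted p = 0.0264). Each was lower in all 3 IMP1 IP libraries than in any IMP2 IP library. C1qtnf3 had a log2 fold change of -0.41 (SE 0.289, edgeR adjusted p = 0.228), and of -0.73 with total count scaling, where it passed (edgeR adjusted p = 0.0263). The Creb3l1 call ended without IMP1 IP replicate 1 or IMP2 IP replicate 1, and the Adm call without IMP1 IP replicate 1 (log2 -0.57), IMP2 IP replicate 2 or IMP2 IP replicate 3 and with DESeq2. Over 14 alternatives the adjusted p was 0.00183 to 0.084 for Creb3l1 and 0.00315 to 0.172 for Adm.

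All 7 members had reads in the total RNA of both knockouts. Levels were 2.54 to 1400.3 CPM in IMP1 KO, where 5 of 7 were at 100 CPM or more, and 39.5 to 237 CPM in IMP2 KO, where 3 of 7 were. With 1 library per genotype there is no replicate check and no test. Ratios carry exact 95% counting intervals, and the WT level had a part in choosing the members. The lower KO value of each member was 33.2 to 281 times its highest IP value, which the choice of members kept below 2 CPM. KO total RNA, like the IP libraries and unlike WT, nearly lacked Y-linked transcripts. The part of this difference in the members' levels was not tested.

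In IMP1 KO, 1 of the 7 members was 2-fold or more above IMP1 WT and 1 was 2-fold or more below it. Among all genes at 10 CPM or more in either library, 11.6% were 2-fold apart, 5.72% higher and 5.87% lower. Over the 1857 genes at 100 CPM or more in both WT libraries, 2.69% were 2-fold higher and 6.73% lower. Cthrc1 had 2.54 CPM in IMP1 KO against 113 CPM in IMP1 WT, from 29 and 1662 reads, 44.4-fold lower (interval 30.8 to 66.5). C1qtnf3 had 1400.3 CPM in IMP1 KO against 199.6 CPM in IMP1 WT, 7.02-fold higher (interval 6.75 to 7.3). These genes, both for secreted proteins with collagen-like repeats, thus lay at opposite ends. Loxl2 had 389.5 CPM in IMP1 KO against 686 CPM in IMP1 WT, 1.76-fold lower (interval 1.7 to 1.82). Aplp1 was at 196 CPM in IMP1 KO against 123 CPM in IMP1 WT, a ratio of 1.59. Creb3l1, Adm and Gpx3 were 1.3-fold, 1.3-fold and 1.59-fold lower in IMP1 KO. The median log2 ratio of the members was -0.38, beside -0.09 over the 1857 genes at 100 CPM or more in both WT libraries and 0.03 over all genes counted.

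In IMP2 KO, 4 of the 7 members were at least 2-fold lower than in IMP2 WT and 0 were 2-fold higher, where 15.2% of genes were 2-fold apart, 7.8% higher and 7.4% lower. Among the 1857 genes at 100 CPM or more in both WT libraries, 11% were 2-fold lower. Loxl2 had 67.3 CPM in IMP2 KO against 669 CPM in IMP2 WT, 9.94-fold lower (interval 9.35 to 10.6). C1qtnf3 had 39.5 CPM in IMP2 KO against 109.7 CPM in IMP2 WT, 2.78-fold lower (interval 2.54 to 3.04). Cthrc1, at 60.3 CPM against 159 CPM, was 2.64-fold lower in IMP2 KO (interval 2.45 to 2.84), and Adm, at 50.4 CPM against 114 CPM, 2.26-fold lower (interval 2.08 to 2.45). Aplp1 and Gpx3 were 1.79-fold and 1.2-fold lower. Creb3l1 alone was higher, at 237 CPM in IMP2 KO against 159.7 CPM in IMP2 WT, a ratio of 1.49 (interval 1.41 to 1.56). The median log2 ratio of the members was -1.18, beside -0.22 over those 1857 genes and -0.01 over all genes counted.

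Cell-type markers also differed between KO and WT. The 5 smooth muscle markers summed to 1327 CPM in IMP2 KO against 10085 CPM in IMP2 WT, and to 12289 CPM in IMP1 KO against 14134 CPM in IMP1 WT. The 6 chondrocyte markers summed to 11373 CPM in IMP2 KO against 245 CPM in IMP2 WT, almost all of it Col2a1, and to 171 CPM in IMP1 KO against 408 CPM in IMP1 WT. The 8 macrophage markers summed to 334.5 CPM in IMP2 KO against 36 CPM in IMP2 WT, with none at 0 there, and to 11.7 CPM in IMP1 KO against 26.8 CPM in IMP1 WT, with Adgre1, Ptprc, C1qb and Tyrobp at 0 in IMP1 KO. The 5 adipocyte markers summed to 171 CPM in IMP2 KO against 24.3 CPM in IMP2 WT, and to 122 CPM in IMP1 KO against 27.5 CPM in IMP1 WT. The 6 neural markers summed to 59.2 CPM in IMP2 KO against 211 CPM in IMP2 WT, and to 129.5 CPM in IMP1 KO against 293 CPM in IMP1 WT. The part of these lists in the members' ratios was not tested. With 1 library a genotype, the knockout and the composition of its culture cannot be told apart.

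**Figure D4:**
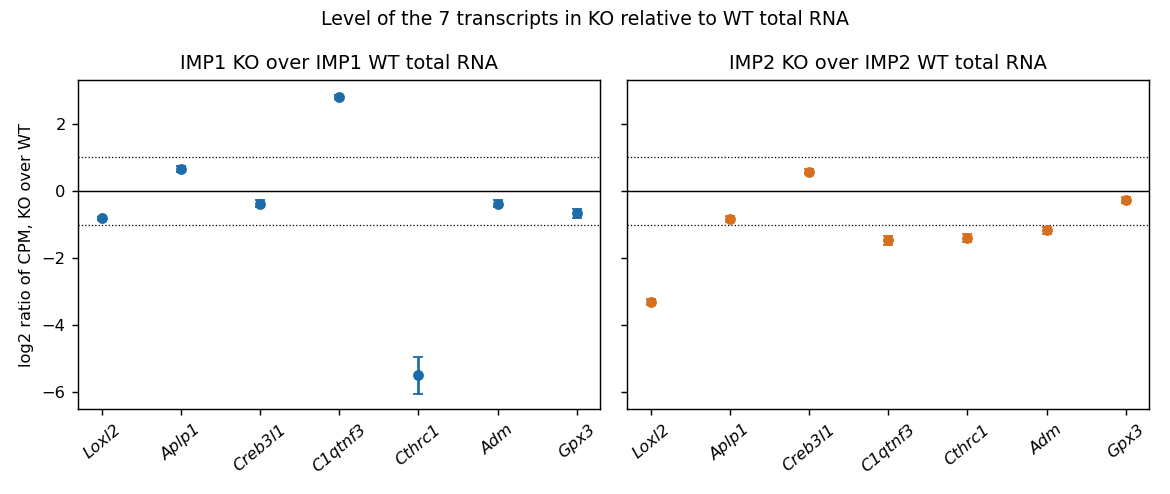
Log2 ratio of CPM, KO over WT total RNA, for each member in the IMP1 pair (left panel) and the IMP2 pair (right panel), with exact 95% counting intervals as bars and 1 library per genotype. Dotted lines mark 2-fold. Cthrc1 lies at -5.47 and C1qtnf3 at 2.81 in the IMP1 pair, and Loxl2 at -3.31 in the IMP2 pair.

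Between the knockouts, 2 members were 2-fold or more higher in IMP1 KO than in IMP2 KO and 2 were lower by as much. Of genes at 10 CPM or more in either library 18.1% were 2-fold apart, 9.36% higher and 8.75% lower. Among the 1857 genes at 100 CPM or more in both WT libraries, 10.9% were 2-fold higher and 5.49% lower. C1qtnf3 was 35.5-fold higher (interval 32.8 to 38.4) and Loxl2 5.79-fold higher in IMP1 KO (interval 5.42 to 6.18). Cthrc1 was 23.8-fold lower (interval 16.4 to 35.7) and Creb3l1 2.06-fold lower in IMP1 KO (interval 1.94 to 2.2). Adm and Aplp1 were 1.99-fold and 1.9-fold higher, and Gpx3 1.55-fold lower. Among the 4 total RNA libraries, neighbours in the order of levels did not differ beyond counting error for Loxl2 between IMP1 WT and IMP2 WT (ratio 1.03, interval 0.998 to 1.05) and for Gpx3 between IMP1 WT and IMP2 KO (ratio 1.02, interval 0.956 to 1.1). The WT libraries themselves differed most in C1qtnf3, which was 1.82-fold higher in IMP1 WT than in IMP2 WT (interval 1.72 to 1.93), and in Aplp1, 1.5-fold lower in IMP1 WT (interval 1.42 to 1.59).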

How the data were processed

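RNA was sequenced in 9 IP and 4 total RNA libraries. The authors deposited whole-number read counts per Ensembl gene, made with STAR and HTSeq against mm10 per the submitters' processing notes. Their versions, the annotation release and the strand setting are not given in the sources used here. Counts of antisense or overlapping genes and of near-identical copies are therefore uncertain. The 5 tally lines of each file were kept out of 43629 genes. Records in no annotated gene were 4.43% to 25.2% per library, with the highest shares in IgG IP. A name table gave symbols for 42462 genes, and positions and promoters came from RefSeq tables of GRCm38.p6. No genome or protein sequence was used here.

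CPM was computed from total gene counts with Python 3.11.15 and pandas 2.3.3, and counting intervals with scipy 1.17.1. The IP libraries were fitted with edgeR 4.0.16 in R 4.3.3 (TMM scaling, default expression filter by group, 2-sided quasi-likelihood test, Benjamini-Hochberg adjustment, threshold 0.05), and standard errors are the log2 fold change over the square root of F. Steps were tested on simulated data. KO and WT were compared as CPM ratios and counted from 2-fold, over genes with 10 CPM or more in either library.

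The alternatives were DESeq2 1.42.0, limma 3.58.1 (voom), other scalings, filters, prior count and thresholds, the replicate block, only the libraries compared, and each library left out. Replicates of an IP group differed by at least as much as sampling noise (chi-square per degree of freedom 1.14 to 8.07), so none was taken as a copy and each was counted. This does not show separate cultures. The highest values, 7.70 and 8.07, were those of IMP2 IP replicate 1 against replicates 2 and 3. Members, lists and tests were chosen with earlier results of these data known. Named genes are the members, other named genes meeting the thresholds, those nearest a threshold, the nearest neighbours on the chromosome, the 8 genes most like the members' mean, and genes of the lists; not every gene under this rule is reported here.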

Additional observations from a re-analysis of the deposited data

Results flagged for a closer look

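The log2 ratio KO over WT had opposite signs in the IMP1 and IMP2 pairs for 3 members, and the differences were not tested. The share of all genes with opposite signs is not given here, so the count only describes the members. Counting intervals lay apart from 1 for every member in both pairs, so they do not set these 3 apart. For C1qtnf3 the IMP1 ratio minus the IMP2 ratio was 4.28 on the log2 scale, with 1400.3 CPM in IMP1 KO against 199.6 CPM in IMP1 WT, and 39.5 CPM in IMP2 KO against 109.7 CPM in IMP2 WT. For Aplp1 it was 1.51, with 196 CPM in IMP1 KO against 123 CPM in IMP1 WT, and 103 CPM in IMP2 KO against 185 CPM in IMP2 WT. For Creb3l1 it was -0.945, with 115 CPM in IMP1 KO against 149 CPM in IMP1 WT, and 237 CPM in IMP2 KO against 159.7 CPM in IMP2 WT. Each genotype has 1 library, so these values have no replicate check.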

How the results depend on the processing

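Counts of all genes called stayed within 1.5 times under every alternative run: without 1 library they were 8352 to 8623 for IMP1 against IgG, 10536 to 11414 for IMP2 against IgG and 9580 to 10103 for IMP1 against IMP2. Scaling moved the median log2 fold change of all genes, which was -0.03, 0.04 and -0.01 in these comparisons, to -0.19, 0.21 and -0.34 with total counts and to -0.20, -0.14 and 0.00 with upper quartiles. For IMP1 against IgG, upper quartiles gave 2952 higher and 6391 lower calls, beside 4457 and 4491. Relative to that median, no tested member's log2 fold change moved by more than 0.00296 with total counts, upper quartiles or DESeq2 size factors. Scaling shifts all genes nearly alike, so so small a move was fixed in advance and is no check of the members. Replicate numbers did not pair the libraries (same-number correlations -0.06 to 0.07). With the replicate block, 0 members passed for IMP1 against IgG (Adm -0.91, adjusted p = 0.0513), 0 for IMP2 against IgG and 2 for IMP1 against IMP2, and 9017, 10961 and 10067 genes in all. Members passing for IMP1 against IgG came to 0 with DESeq2 and with no count filter, and to 0 to 1 without 1 library. For IMP2 against IgG they came to 1, Loxl2, with no filter, and 0 to 1 without 1 library. Loxl2 was called in both comparisons without IgG IP replicate 2, and in IMP2 against IgG without any 1 IMP2 IP library; it passed the count filter there only through the IgG IP libraries where it is high, so those calls support nothing. For IMP1 against IMP2 they came to 1 with DESeq2 and 0 to 2 without 1 library. Adm and Creb3l1 passed the filter of the main fit only through IMP2 IP and IgG IP libraries, so their calls support nothing either. In 8 fits a member that did not pass changed sign. C1qtnf3 in IMP1 against IgG came to -0.10 with total counts and -0.11 with upper quartiles, and -0.17 to 0.18 without 1 library. Adm in IMP2 against IgG came to 0.068 with no filter and 0.15 with total counts, and -0.16 to 0.20 without 1 library. The genes meeting both thresholds, 22 in the main count, were 62 at 50 CPM and 6 at 200 CPM in WT, 15 at 1 CPM and 38 at 5 CPM in IP, and 22 to 24 without 1 IP library. Only Loxl2 among the members met 200 CPM, and Creb3l1, C1qtnf3 and Adm did not meet 1 CPM. TMM, upper quartile and a prior count of 2 kept the direction of every KO ratio and each count of 2-fold members within 1.5 times. The cause of these changes was not tested. IP values rest on 0 to 24 reads.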

Other observations

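The reverse pattern was rarer. Of 1711 genes at 100 CPM or more in all 9 IP libraries, 2 were below 2 CPM in both WT total RNA libraries. Rorb, an orphan nuclear receptor, was at 107 to 115 CPM in IMP1 IP, 109 to 117 CPM in IMP2 IP and 155 to 164 CPM in IgG IP, against 0 to 0.232 CPM in the 4 total RNA libraries. Neurl1b, a ubiquitin ligase of Notch signalling, was at 109 to 121 CPM in IMP1 IP, 175 to 191 CPM in IMP2 IP and 150.0 to 156 CPM in IgG IP, against 0.755 to 2.62 CPM in total RNA.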
